A study of Mus musculus with 6 samples.

Results

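Oxidative phosphorylation genes of S100a10 cells in the mouse cortex were compared between fluoxetine and vehicle, complex by complex. Members were all genes that a probe set of the array names alone and whose symbol starts with Nduf, Uqcr, Cox4 to Cox8 or Atp5, or is Sdha, Sdhb, Sdhc, Sdhd, Cyc1 or Cycs. The rule gave 92 genes, measured by 184 probe sets, out of 18193 genes and 45037 probe sets on the array. Each gene was represented by its probe set with the highest mean over the 6 arrays. By prefix, 44 genes fell to complex I, 4 to complex II, 9 to complex III, 17 to complex IV and 17 to complex V, and Cycs, the carrier between complexes III and IV, stood alone. Subunits Ndufs6, Ndufa11 and Cox7b are not described, because no probe set used here names them alone.

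The fluoxetine group consisted of 3 samples from mice that drank fluoxetine, an antidepressant that blocks serotonin reuptake, at 0.167 mg/ml in 1% saccharine for 15 to 18 days. The vehicle group consisted of 3 samples from mice that drank 1% saccharine alone over the same time. Mice of both groups carried the same bacTRAP transgene, line ES691, in which the S100a10 gene's control region on a bacterial artificial chromosome drives a tagged ribosomal protein, on a background moved from FVB to C57BL/6 over 3 to 5 generations of backcrossing. Tagged ribosomes were pulled from cortex (translating ribosome affinity purification, TRAP), so the values stand for ribosome-bound RNA; the labels call each group's samples biological replicates, and the age, the sex and the number of animals per sample are not given in the sources used here. P-values therefore measure the spread between these samples, and with so few arrays each value has limited precision.

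Oxidative phosphorylation turns electrons from food into ATP in the inner mitochondrial membrane. Complexes I and II pass electrons from NADH and succinate to ubiquinone, complex III hands them to cytochrome c, complex IV passes them to oxygen, and complex V uses the proton gradient built on the way to make ATP. Most subunits are encoded in the nucleus, a few in mitochondrial DNA, and neurons rely on this pathway to pay for ion pumping and synaptic transmission.

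Many nuclear genes of the pathway are known to carry binding sites for nuclear respiratory factor 1 (NRF1) near their start. Its consensus of 10 bases, searched on both strands in the 250 bases before the start, occurred in 12 of 75 members with a RefSeq promoter window (16%), against 4.23% of 27025 genes in the same table. By complex it occurred in 5 of 39 members of complex I, 2 of 3 of complex II, 0 of 5 of complex III, 1 of 12 of complex IV and 4 of 15 of complex V. The letters CCGGAAG, bound by ETS factors such as GA-binding protein, occurred in 14 members (18.7%), against 7.83% of all genes, and overlap with the NRF1 letters was not counted. The YY1 letters ATGGCGGC occurred in 1 member (1.33%), against 1.19%, and TATAAA in 7 members (9.33%), against 14.3%. These sequences are shown because they show the shared letters in members of complexes I, II, IV and V, with the matches in capitals, 5′ to 3′ on the gene's strand. All 5 genes lie on the minus strand, at chr2:36049339-36049408 for Ndufa8, chr13:74350241-74350378 for Sdha, chr9:50603879-50603968 for Sdhd, chr5:115349026-115349160 for Cox6a1 and chr2:10080433-10080489 for Atp5c1 (RefSeq, GRCm38.p6).
Ndufa8: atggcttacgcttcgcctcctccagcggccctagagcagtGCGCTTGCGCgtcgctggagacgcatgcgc
Sdha: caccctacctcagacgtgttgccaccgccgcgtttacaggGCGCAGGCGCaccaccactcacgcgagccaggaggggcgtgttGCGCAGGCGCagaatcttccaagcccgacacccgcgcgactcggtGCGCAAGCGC
Sdhd: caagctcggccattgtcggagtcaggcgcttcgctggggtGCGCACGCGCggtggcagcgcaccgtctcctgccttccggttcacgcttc
Cox6a1: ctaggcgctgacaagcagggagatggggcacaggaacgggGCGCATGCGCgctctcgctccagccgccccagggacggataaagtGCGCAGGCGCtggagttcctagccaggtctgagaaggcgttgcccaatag
Atp5c1: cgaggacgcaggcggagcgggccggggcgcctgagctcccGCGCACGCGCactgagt
A match is a description of the letters in a window, and a window without one says nothing about the factor. Sdha held 3 matches and Cox6a1 held 2.

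Values are log2 intensities as deposited, and differences are fluoxetine minus vehicle on that scale. Of those 45037 probe sets, 22326 (49.6%) had a geometric mean intensity of at least 50 and were tested with limma. Array medians lay between 47.3 and 48.6 in intensity, and pairs of arrays correlated at 0.980 to 0.992. S100a10 itself read 15.09, 15.17 and 14.98 on the fluoxetine arrays, against 15.07, 15.22 and 15.17 on the vehicle arrays, and these values overlapped. All 6 measured pyramidal neuron markers passed the filter (Etv1 was not named alone by a probe set), as did all 6 markers of inhibitory neurons and all 6 of astrocytes, 2 of 3 measured oligodendrocyte markers, 3 of 4 microglial and 4 of 5 endothelial and mural markers. The astrocyte marker Gfap passed only through fluoxetine 1 and 3 (12.13 and 9.02), and its other arrays read 4.49 to 5.67. According to the submitters the transgene is also active in some non-neuronal cells, and the probe set selection they recommend for that reason was not applied. In such bulk samples, fewer cells of a type and less RNA per cell cannot be told apart.

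Of the 92 members, 86 passed the filter and 6 did not. The 6 below it were Ndufb4 of complex I and Cox4i2, Cox7b2, Cox7c, Cox8b and Cox8c of complex IV, with intensities of 8.59 for Cox4i2, 9.17 for Cox7c, 10.1 for Ndufb4, 11.1 for Cox7b2, 30.2 for Cox8c and 46.8 for Cox8b. Ndufb4 and Cox7c are not tissue isoforms. Whether their probe sets report the main transcripts was not tested, so these values do not show low expression. The nearest members above the filter were Ndufa4l2 at 60.4 and Cox6a2 at 302. Many members gave bright signals, with 51 at a mean log2 intensity of at least 14.

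No member changed with fluoxetine at an adjusted p under 0.05 (0 of 86, against 0% of the 22326 probe sets tested). At an unadjusted p under 0.05 there were again 0 members, against 2.52% of all probe sets, and the smallest unadjusted p of a member was 0.103. The differences were small: 70 of 86 were under 0.1 in size and 3 were at least 0.2, within a range of -0.37 to 0.29. Every member's 95% interval held 0, and 77 of the 86 intervals (89.5%) lay within ±0.5, a 1.41-fold change, against 53.4% over all probe sets. For those 77 members the arrays therefore placed any difference in the deposited values within that bound, by intervals not adjusted for the number of genes. Compression of bright signals was not tested. The median standard error was 0.122 over members, against 0.154 over all probe sets. The other 9, with wider intervals, were Ndufa10, Ndufa4l2, Ndufaf2, Ndufs5, Uqcr10, Uqcrc1, Cox6a2, Cox6b2 and Cox7a1. Groups did not overlap for 1 member, Cox7a2l, against 8.05% of all probe sets tested.

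**Figure D1:**
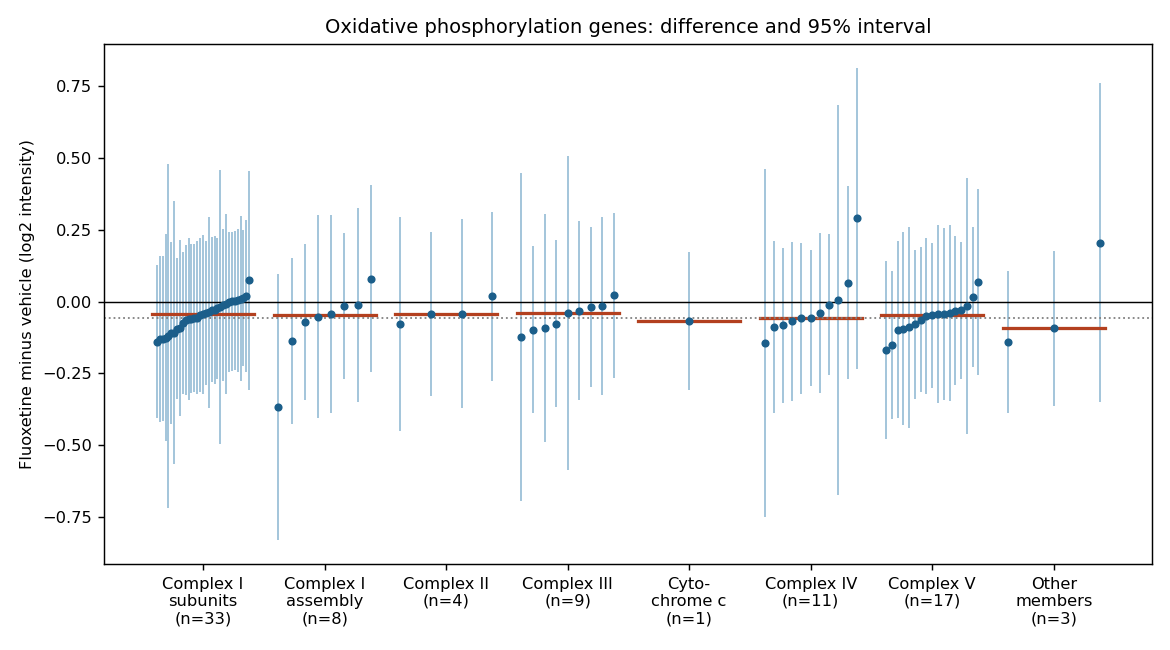
Difference in log2 intensity (fluoxetine minus vehicle) with its 95% interval for each of the 86 members, arranged by complex and role, with each class median as a red bar and the median of all probe sets tested (-0.06) as a dotted line. Every interval crosses 0, and the class medians lie near the dotted line.

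Most members read slightly lower with fluoxetine, 70 of 86 as deposited, but 40 of 86 after quantile normalization and 34 of 86 after shifting the arrays to a common median of the tested probe sets, and 74 of 86 after the same shift on the median of all probe sets. Over all probe sets tested, the share lower was 66.3% as deposited, 50.2% after quantile normalization, 49.2% after the first shift and 68.0% after the second. The shift called the median shift from here on is that over the tested probe sets; with the one over all probe sets, 29 of 33 complex I subunits, 3 of 4 of complex II, 8 of 9 of complex III, 9 of 11 of complex IV and 15 of 17 of complex V were lower. The median difference over members was -0.045, against -0.058 over all probe sets, and after quantile normalization these medians were 0.006 and -0.001. Complex medians in the deposited values were -0.044 for complex I subunits, -0.043 for complex II, -0.040 for complex III, -0.057 for complex IV and -0.048 for complex V. Between arrays of the same group, the median deviation of each complex had a pooled SD. It was 0.057 for complex I, 0.098 for complex II, 0.116 for complex III, 0.066 for complex IV and 0.068 for complex V. The median standard error of a single member was 0.122. No test between complexes was made.

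Complex I takes electrons from NADH. Its subunits were lower in 26 of 33 cases as deposited, in 15 after quantile normalization and in 12 with the median shift, and differences ran from -0.14 to 0.07. The 6 core subunits that carry the flavin and iron-sulphur clusters or hold them in the matrix arm were split, 3 higher and 3 lower, with a median of -0.01. Among the 27 accessory subunits, which surround the core, 23 were lower in the deposited values and 14 after quantile normalization.

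Ndufv1, the flavoprotein that binds NADH, read 14.82, 14.30 and 14.73 with fluoxetine, against 14.54, 14.65 and 14.44 with vehicle. Its highest and its lowest array were both fluoxetine arrays, so the groups overlapped, and the difference was 0.07 (95% interval -0.31 to 0.46), the highest of the complex I subunits. Other probe sets of Ndufv1 differed by 0.02 and -0.08. Ndufs1, the large iron-sulphur subunit, read 12.32, 12.09 and 12.69 with fluoxetine, against 12.53, 12.56 and 12.07 with vehicle, with a difference of -0.02 (-0.50 to 0.46). The lowest array was a vehicle array and the highest a fluoxetine array. Ndufs8, which carries iron-sulphur clusters towards the ubiquinone site, read 15.08, 14.86 and 14.76 with fluoxetine, against 14.86, 15.05 and 15.06 with vehicle, and differed by -0.09, the lowest of the core.

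Ndufv3, a small accessory subunit of the NADH-binding module, had the lowest difference among complex I subunits. It read 14.65, 14.44 and 14.59 with fluoxetine, against 14.63, 14.76 and 14.71 with vehicle, a difference of -0.14 (-0.41 to 0.13). Only fluoxetine 1 reached into the vehicle range. Ndufa10, an accessory subunit of the membrane arm, read 14.05, 13.46 and 14.12 with fluoxetine, against 13.90, 14.14 and 13.92 with vehicle. Its difference of -0.11 came with fluoxetine 2 far below the other arrays, and without that array the difference of Ndufa10 was 0.10. A second probe set of Ndufa10 differed by 0.07, with the opposite sign. Ndufa8, whose promoter is shown above, read 13.76, 13.38 and 13.61 with fluoxetine, against 13.47, 13.71 and 13.69 with vehicle, and the groups overlapped with a difference of -0.04.

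The 8 complex I assembly factors, which build the complex and are not part of it, had a median of -0.05 and ranged from -0.37 to 0.08. Ndufaf2, a chaperone of late assembly, had the lowest difference of all members. It read 10.68, 11.10 and 11.30 with fluoxetine, against 11.44, 11.60 and 11.14 with vehicle, a difference of -0.37 (SE 0.20, 95% interval -0.83 to 0.10). Fluoxetine 3 lay above vehicle 3, so the groups overlapped; limma's adjusted p was 0.999, and without fluoxetine 1 the difference of Ndufaf2 was -0.19. Ndufaf1, an earlier assembly factor, had the highest difference of the 8, at 0.08.

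Ndufa4 carries a complex I name but is now placed with complex IV, and Ndufa4l2 is its hypoxia-inducible relative. Ndufa4 read 13.75, 13.53 and 13.59 with fluoxetine, against 13.64, 13.72 and 13.80 with vehicle, a difference of -0.09. Ndufa4l2, just above the filter, read 5.78, 6.35 and 5.93 with fluoxetine, against 6.05, 5.35 and 6.04 with vehicle, a difference of 0.20 (SE 0.24). Both pairs of groups overlapped.

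Complex II, succinate dehydrogenase, also belongs to the citric acid cycle. Its 4 subunits lay between -0.08 and 0.02, with 3 of 4 lower as deposited, 2 of 4 after quantile normalization and 1 of 4 with the median shift. Sdha, the flavoprotein that oxidises succinate, read 14.39, 13.95 and 14.45 with fluoxetine, against 14.36, 14.42 and 14.26 with vehicle. Fluoxetine 2 was the lowest of the 6 arrays and the other fluoxetine arrays lay among or above the vehicle arrays; the difference was -0.08 (-0.45 to 0.29), and without fluoxetine 2 the difference of Sdha was 0.08. Sdhb, the iron-sulphur subunit, read 14.69, 14.29 and 14.44 with fluoxetine, against 14.41, 14.53 and 14.62 with vehicle, a difference of -0.04. For Sdhb the fluoxetine group held both the highest and the lowest array. Sdhd, a membrane anchor, read 11.19, 11.46 and 11.42 with fluoxetine, against 11.27, 11.45 and 11.30 with vehicle, a difference of 0.02, and Sdhc, the other anchor, differed by -0.04.

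Complex III passes electrons from ubiquinol to cytochrome c. Its 9 members lay between -0.12 and 0.02, with 8 of 9 lower as deposited but 4 of 9 after quantile normalization as well as the median shift. Uqcrc1, a core protein of the matrix side, read 13.18, 12.24 and 13.04 with fluoxetine, against 12.91, 13.04 and 12.88 with vehicle. Fluoxetine 1 and 3 lay at or above the highest vehicle array while fluoxetine 2 lay far below all others; the difference was -0.12 (-0.70 to 0.45), and without fluoxetine 2 the difference of Uqcrc1 was 0.165. Cyc1, cytochrome c1, read 15.09, 14.50 and 14.99 with fluoxetine, against 14.89, 15.00 and 14.96 with vehicle. Fluoxetine 2 was again far below the other arrays and fluoxetine 1 the highest, with a difference of -0.09 (-0.49 to 0.31). Uqcrfs1, the Rieske iron-sulphur protein, read 14.45, 14.13 and 14.25 with fluoxetine, against 14.30, 14.26 and 14.20 with vehicle, and at 0.02 was the highest of the complex. Cycs, cytochrome c, read 15.22, 15.12 and 15.16 with fluoxetine, against 15.20, 15.24 and 15.26 with vehicle, a difference of -0.07 (SE 0.10) with overlapping groups. Other probe sets of Cycs differed by 0.02, -0.09 and -0.19.

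**Figure D2:**
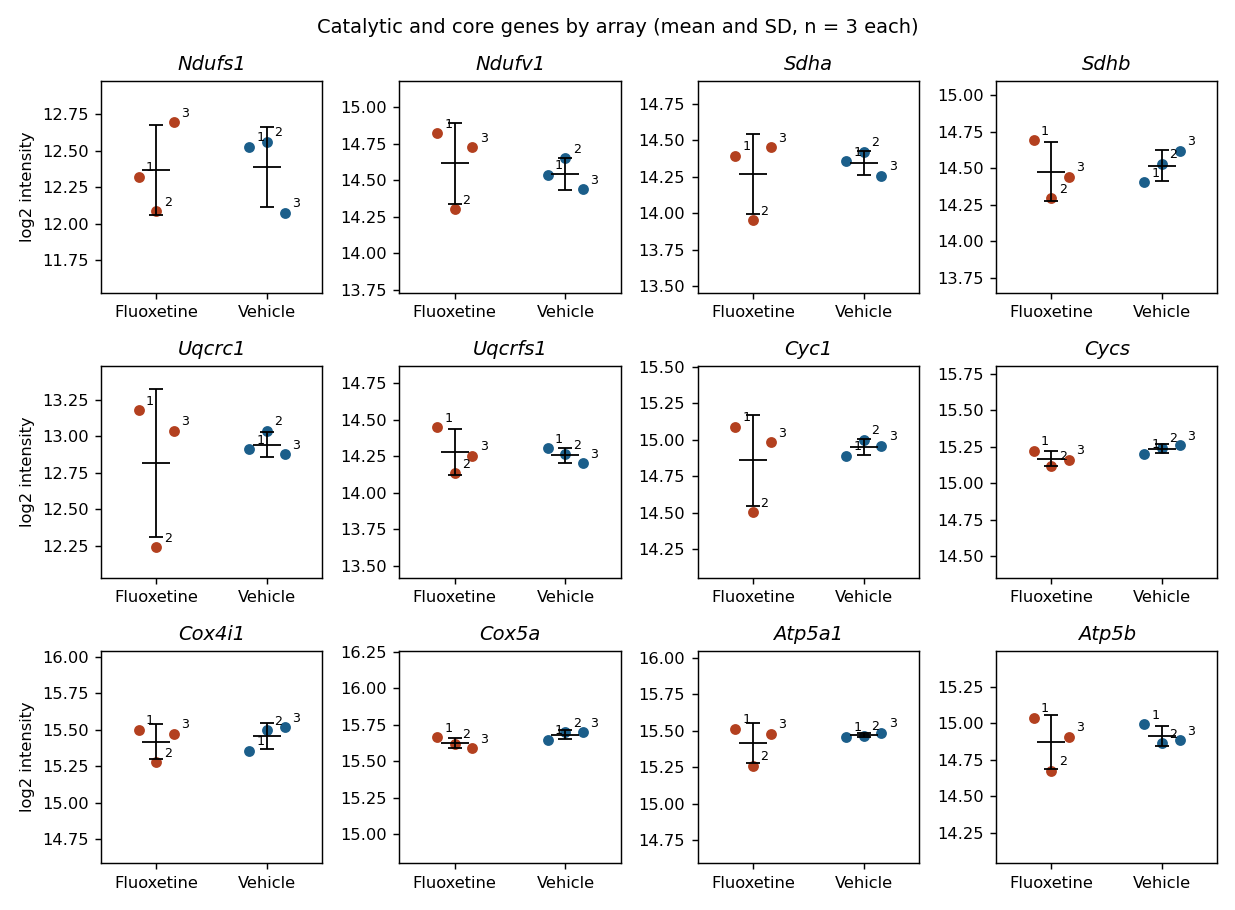
Log2 intensity on each array for 12 catalytic or electron-carrying genes, fluoxetine left and vehicle right in each panel, with the group mean and SD (n = 3 each) and the replicate number at each point. Fluoxetine 2 lies lowest for genes such as Uqcrc1, Cyc1 and Sdha, while the group means lie close together.

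Complex IV, cytochrome c oxidase, reduces oxygen. The 11 subunits above the filter lay between -0.15 and 0.29, with 8 of 11 lower as deposited, 6 after quantile normalization and 4 with the median shift. Cox4i1, the nuclear subunit that binds ATP as a regulator, read 15.50, 15.28 and 15.47 with fluoxetine, against 15.36, 15.50 and 15.52 with vehicle, a difference of -0.04. Cox5a, its neighbour in the complex, read 15.66, 15.62 and 15.59 with fluoxetine, against 15.65, 15.70 and 15.70 with vehicle, a difference of -0.06 (SE 0.10). For both, the groups overlapped.

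Several complex IV subunits come as tissue isoforms. Of the ubiquitous forms, Cox6a1 differed by -0.06, Cox6b1 by -0.01, Cox7a2 by -0.07 and Cox8a by 0.07. The probe sets of Cox7a2 differed in sign. Cox6a2, the heart and muscle form, read 8.75, 7.61 and 8.37 with fluoxetine, against 8.01, 8.50 and 8.20 with vehicle, and its difference of 0.01 came with the widest standard error of all members, 0.29. Cox6b2, the testis form, read 8.47, 8.86 and 8.08 with fluoxetine, against 8.22, 8.63 and 8.996 with vehicle, a difference of -0.15, the lowest of complex IV. Cox7a1, another heart and muscle form, had the highest difference of all members. It read 9.08, 8.39 and 8.38 with fluoxetine, against 8.08, 8.36 and 8.54 with vehicle, a difference of 0.29 (SE 0.22, 95% interval -0.23 to 0.81). Fluoxetine 1 was the highest array, and without it the difference of Cox7a1 was 0.058. Isoforms Cox4i2, Cox8b and Cox8c were below the filter and were not tested.

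Cox7a2l, which helps to join complexes III and IV into a supercomplex, was the only member whose groups did not overlap in the deposited values. It read 14.44, 14.45 and 14.50 with fluoxetine, against 14.52, 14.63 and 14.66 with vehicle. All 3 fluoxetine arrays lay below all 3 vehicle arrays, though fluoxetine 3 and vehicle 1 were close. The difference was -0.14 (SE 0.10, 95% interval -0.39 to 0.11), and limma's adjusted p was 0.999. Its other 2 probe sets both differed by -0.13. After quantile normalization as well as the median shift its difference was -0.08 and the groups overlapped. Over all probe sets 5.23% were separated in this direction and 2.83% in the other, so 1 of 86 is not above the background.

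Complex V makes ATP. Its 17 subunits lay between -0.17 and 0.07, all 17 intervals were within ±0.5, and 15 of 17 were lower as deposited but 7 of 17 after quantile normalization as well as the median shift. Atp5a1, the alpha subunit of the catalytic F1 head, read 15.52, 15.26 and 15.48 with fluoxetine, against 15.46, 15.47 and 15.49 with vehicle, a difference of -0.05. The probe sets of Atp5a1 above the filter differed in sign. Atp5b, the catalytic beta subunit, read 15.04, 14.67 and 14.91 with fluoxetine, against 14.99, 14.86 and 14.88 with vehicle, a difference of -0.04. Atp5c1, the gamma shaft, read 15.67, 15.31 and 15.62 with fluoxetine, against 15.54, 15.62 and 15.57 with vehicle, a difference of -0.04. In these 3 genes fluoxetine 2 was the lowest array and fluoxetine 1 the highest.

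Atp5g1, Atp5g2 and Atp5g3 encode the same c subunit of the membrane ring. Atp5g1 differed by -0.01, Atp5g2 by -0.09 and Atp5g3 by -0.15. Atp5g3 read 15.26, 15.22 and 15.42 with fluoxetine, against 15.42, 15.45 and 15.48 with vehicle, so that fluoxetine 3 only just reached the vehicle range (95% interval -0.41 to 0.11). A second probe set of Atp5g1 differed by 0.23, with the opposite sign. Atp5l, subunit g of the membrane part, had the lowest difference of the complex: it read 12.33, 12.36 and 12.25 with fluoxetine, against 12.31, 12.69 and 12.44 with vehicle, a difference of -0.17 (-0.48 to 0.14). Atp5o, which joins head and stalk, had the highest, at 0.07, with 14.26, 14.18 and 13.86 with fluoxetine, against 13.99, 13.99 and 14.11 with vehicle. For Atp5l and Atp5o the groups overlapped.

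The spread within groups exceeded the difference between them for most members. The range of the 3 fluoxetine arrays was wider than the difference for 81 of 86 members, and that of the 3 vehicle arrays for 76. A range of 3 values usually exceeds a difference of group means even where nothing changes. The share over all probe sets was not counted, so these counts show nothing particular to the members. The SD was larger among fluoxetine arrays in 57 of 86 members (66.3%), against 60.3% of all probe sets tested. Its median over members was 0.116 among fluoxetine arrays and 0.0845 among vehicle arrays, and over all probe sets 0.194 among fluoxetine arrays and 0.152 among vehicle arrays. No test between classes was made. Median SDs with fluoxetine were 0.101, 0.173, 0.159, 0.122 and 0.0868 for the subunits of complexes I to V. With vehicle they were 0.0765, 0.104, 0.0913, 0.0853 and 0.0728, in the same order. In the 5 F1 subunits the median SDs were 0.185 with fluoxetine and 0.0704 with vehicle, and in the 6 core subunits of complex I they were 0.154 with fluoxetine and 0.0959 with vehicle. In the 8 complex I assembly factors they were 0.148 with fluoxetine and 0.170 with vehicle, and the fluoxetine SD was the larger in 3 of 8.

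**Figure D3:**
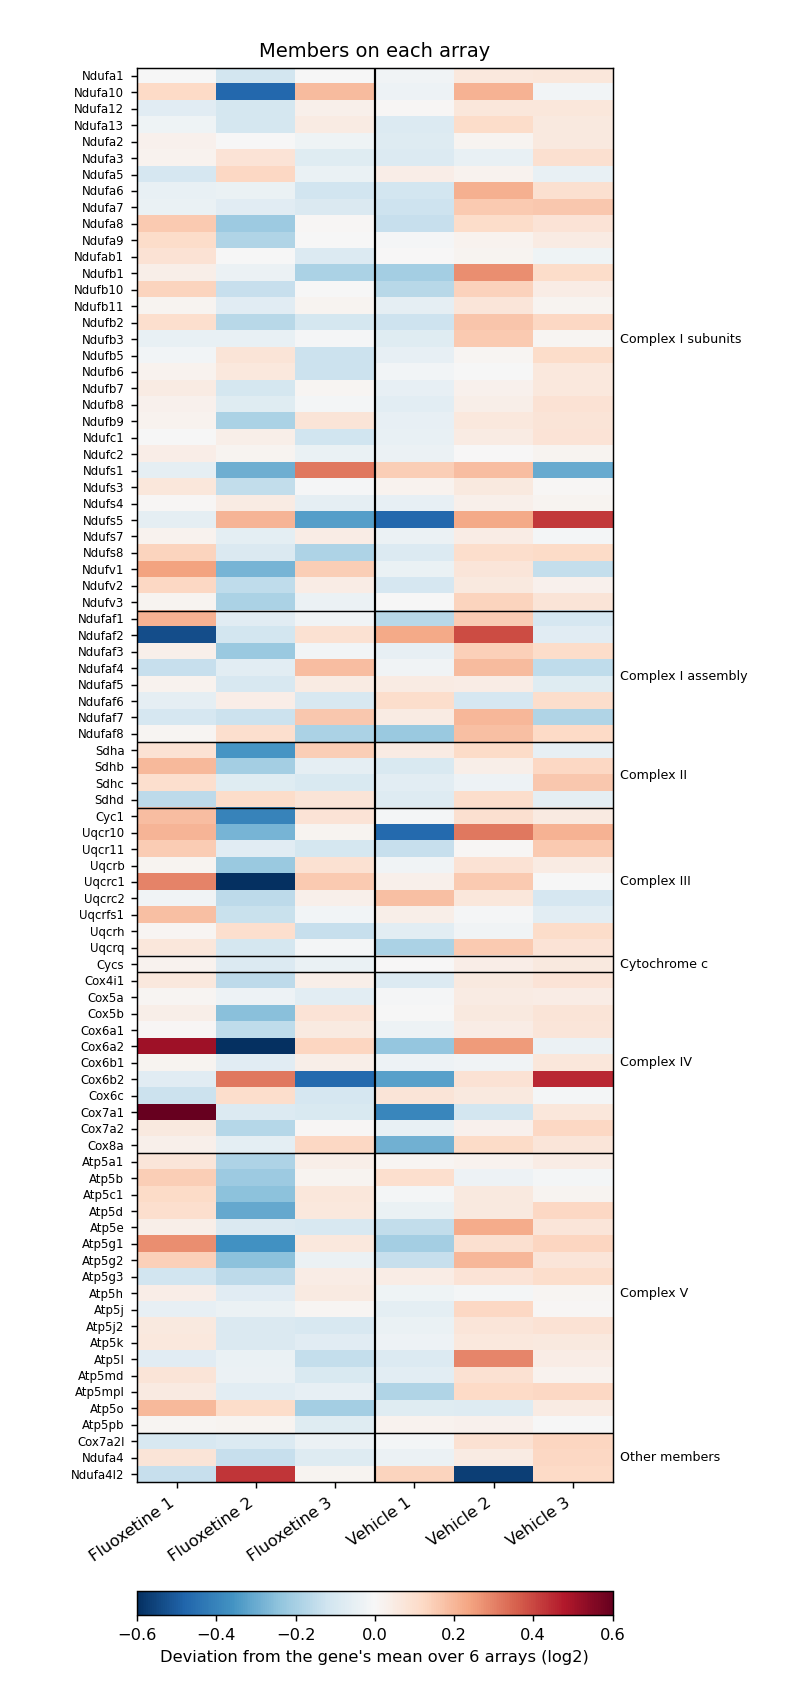
Deviation of each of the 86 members from its own mean over the 6 arrays (log2, colours limited to ±0.6), fluoxetine arrays left of vehicle arrays, with genes grouped by complex and role. Blue runs through much of the fluoxetine 2 column, and no row block separates all fluoxetine from all vehicle arrays.

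Fluoxetine 2 read lowest in 42 of 86 members (48.8%), against 28.2% of all probe sets tested. After quantile normalization it was lowest in 29.1% of members, against 19.0% of all probe sets, and after the median shift in 20.9%, against 17.1%. In the deposited values it was lowest for 4 of 5 F1 subunits, 4 of 6 complex I core subunits, 5 of 9 complex III members and 2 of 8 complex I assembly factors. With quantile normalization these counts were 4 of 5, 2 of 6, 3 of 9 and 1 of 8, and with the median shift 2 of 5, 2 of 6, 4 of 9 and 1 of 8, in the same order. The median deviation of the F1 subunits was 0.0996, -0.220 and 0.035 on the fluoxetine arrays, against -0.011, 0.058 and 0.042 on the vehicle arrays. On fluoxetine 2 it was -0.142 with quantile normalization and -0.139 with the median shift. Without fluoxetine 2, 42 of 86 members were lower with fluoxetine, and the members' median difference was 0.0004. Astrocyte markers also varied more among the fluoxetine arrays: the 6 genes averaged 11.14, 9.26 and 10.42 with fluoxetine, against 9.37, 9.62 and 9.58 with vehicle, with fluoxetine 2 the lowest. Gfap, an intermediate filament gene, had the widest range, with 12.13, 4.49 and 9.02 on the fluoxetine arrays, against 4.70, 5.24 and 5.67 on the vehicle arrays. Without Gfap the other 5 averaged 10.95, 10.21 and 10.70 with fluoxetine, against 10.30, 10.50 and 10.36 with vehicle. Within the list, Sox9 was higher on all 3 fluoxetine arrays (8.68 to 8.89) than on any vehicle array (8.16 to 8.23), while Gja1 read 14.48, 14.59 and 14.45 with fluoxetine, against 14.48, 14.74 and 14.77 with vehicle. The 6 pyramidal markers, S100a10 among them, averaged 11.54, 11.63 and 11.44 with fluoxetine, against 11.56, 11.48 and 11.55 with vehicle. Without S100a10 the other 5 averaged 10.83, 10.93 and 10.73 with fluoxetine, against 10.85, 10.73 and 10.83 with vehicle. Fluoxetine 2 also had the lowest mean for the 6 inhibitory neuron markers (10.25) and the 2 oligodendrocyte markers (9.45). It did not for the 3 microglial (7.34) or the 4 endothelial and mural markers (7.70). The part of cell makeup in the array pattern was not tested.

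**Figure D4:**
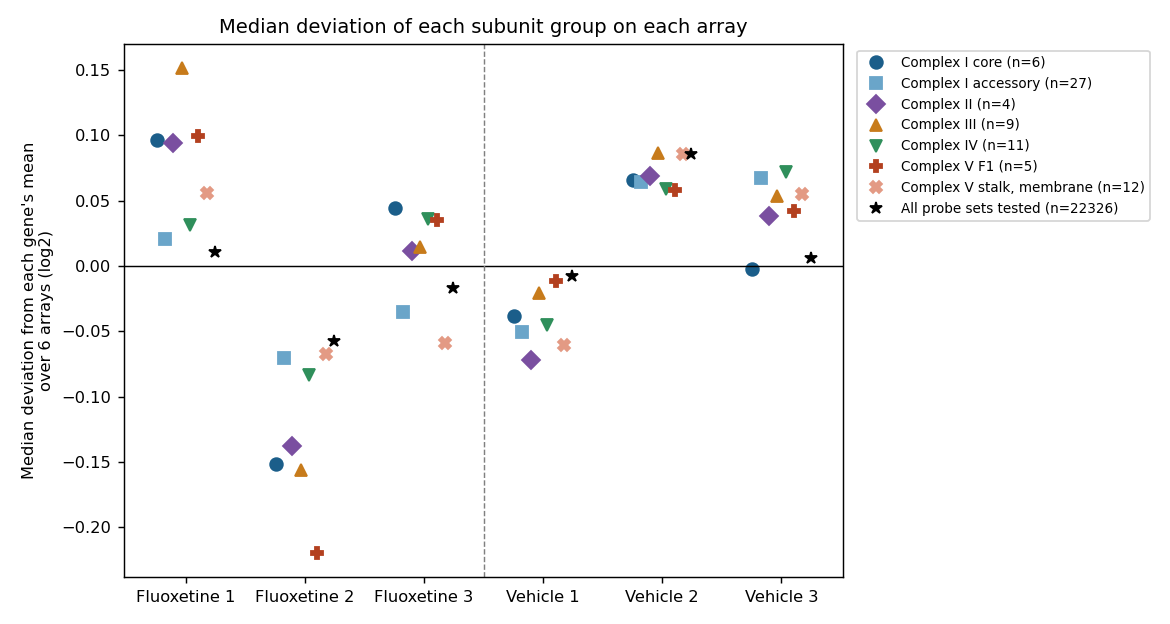
Median deviation in log2 intensity per array for each group of subunits and for all probe sets tested, fluoxetine arrays left of vehicle arrays. Fluoxetine 2 lies lowest for the F1 subunits (-0.220), complex III (-0.157) and the complex I core (-0.151), against -0.058 for all probe sets, in the deposited values plotted. With quantile normalization these were -0.142, -0.067, -0.066 and 0.003, and with the median shift -0.139, -0.076, -0.071 and 0.023.

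Other genes of the pathway gave no call. Of 38 assembly factors of the respiratory chain that were listed, 35 were tested, 0 passed, and 30 were lower as deposited, 19 after quantile normalization and 21 with the median shift. Uqcc3, an assembly factor of complex III, read 10.65, 10.83 and 10.61 with fluoxetine, against 10.80, 11.00 and 11.08 with vehicle, a difference of -0.26 (SE 0.13). Sco1, a copper chaperone of complex IV, differed by -0.27 (SE 0.15), and the complex I factors Timmdc1 and Tmem126b by -0.24 and -0.19. These 4 had the smallest unadjusted p-values of the list, and its highest difference was 0.19, in Atpaf2, an assembly factor of complex V. Of 19 regulators of mitochondrial gene expression, all tested, 0 passed and 15 were lower as deposited and 13 after either rescaling, with a median of -0.13 as deposited, -0.058 after quantile normalization and -0.071 with the median shift. The highest difference was 0.05, in Gabpa, the DNA-binding subunit of GA-binding protein, and the 4 named next had the smallest unadjusted p-values. Nrf1, which encodes the factor whose letters are shown in the promoters, read 6.26, 6.39 and 6.25 with fluoxetine, against 6.36, 6.64 and 6.55 with vehicle, a difference of -0.22 (SE 0.12) with overlapping groups. Ppargc1b, a coactivator of mitochondrial biogenesis, differed by -0.36 (SE 0.21), Gabpb1, a GA-binding protein subunit, by -0.26, and Polg, the mitochondrial DNA polymerase, by -0.21. The values of Nrf1 and of Gabpb1 (5.91 to 6.68) lay near the filter. Of 26 symbols listed for the mitochondrial DNA genes, each gene under its plain and its mt- prefixed name, only ND5, a complex I subunit, was measured, with 4.83, 6.66 and 6.68 with fluoxetine, against 6.16, 6.01 and 5.26 with vehicle. The difference of ND5 was 0.25, with an SE of 0.51. These values lay near the filter, and whether this RNA was bound to tagged ribosomes was not tested.

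Probe sets of 1 gene did not always move alike. Of 47 members with several probe sets above the filter, 31 had the same sign in all of them. Ndufs4, an accessory subunit of complex I, ranged from -0.16 to 0.10 over its 4 probe sets. The representative probe set of 14 members ends in _s_at and that of 6 in _x_at, types that can match transcripts of several genes, and this gene family has many processed pseudogenes, so those members' values are less certain.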

How the data were processed

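The authors deposited GCRMA-normalized intensity, not yet on a log scale, for 45101 probe sets on 6 single-colour arrays. The use of GCRMA is recorded, without a version, in the series' design text and per the submitters' processing notes. Per the labels' protocols, 15 ng of RNA per sample was amplified in 2 cycles, and per the series' design text the replicates were averaged by condition; the values used here are those of the single arrays. GCRMA includes a step that aligns the arrays' distributions, yet upper quartiles of the deposited values still ran from 498 to 574. It also squeezes low intensities towards a floor and may remove a shift common to many genes. The linear scale was inferred from values between 1.74 and 99076.

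From these, 64 array controls were left out. The platform annotation gave 1 symbol for 34945 probe sets, several for 932 and none for 9160, and genes were named only from the first kind. All 92 member symbols were found in RefSeq (GRCm38.p6) and 0 were updated. Values were taken to log2 without offset, and probe sets with a geometric mean of at least 50 were tested with limma 3.58.1 (lmFit, eBayes, two-sided) under R 4.3.3, fluoxetine minus vehicle, with Benjamini-Hochberg adjustment over 22326 probe sets and a threshold of 0.05. Intervals are limma's 95% intervals. The fit was tested on simulated data. No sample column was left unused (0). Members and lists were chosen with earlier results of these data known. Genes named were those past the threshold, non-overlapping members, catalytic core genes, tissue isoforms, the extremes of each complex and up to 4 genes of each other list. Ndufs8, Ndufa10, Ndufa8, Ndufaf1, Ndufs4, Sdhc, Sdhd, Atp5c1, Atpaf2, Gabpa, Gfap, Sox9, Gja1 and the genes with promoters shown were otherwise chosen after their values were seen. Alternatives were a minimum of 100 or no filter, quantile normalization, a median shift, an offset of 16, the replicate block, trend and robust variance, array weights, averaging the probe sets of a gene, a threshold of 0.10, and dropping _x_at and _s_at probe sets or single arrays.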

Additional observations from a re-analysis of the deposited data

How the results depend on the processing

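limma called 0 probe sets and 0 members in every setting tried, against 563 probe sets at an unadjusted p under 0.05 in the deposited values. Groups did not overlap for 1 of 86 members as deposited, 2 of 92 without a filter and 0 of 86 after the median shift. They did not overlap for 3 of 85 with the mean of a gene's probe sets and 13 of 86 without both fluoxetine 1 and vehicle 2. In the same order, the share over all probe sets was 8.05%, 22.8%, 6.67%, 7.55% (over genes) and 27.2%. Leaving out 1 array gave 3 to 25 such members, where fewer arrays make separation easier by construction. The share over all probe sets was then 12.8% to 21.1%. The count of 25, out of 86 members, came without vehicle 1, where that share was 17.8%. Settings added after seeing the data gave 34 of 86 members without both fluoxetine 2 and vehicle 1. They gave 3 of 86 after a median shift over all probe sets. The shares over all probe sets in these settings were 33.3% and 8.03%. The count of members lower with fluoxetine, 70 as deposited, was 40 with quantile normalization, 34 after the median shift, 74 after the added median shift over all probe sets and 42 to 77 on leaving out 1 array, 42 being without fluoxetine 2. The median of complex I was 0.014 with quantile normalization and 0.016 with the median shift. On leaving out 1 array the medians ran from -0.083 to -0.017 for complex I, -0.124 to 0.015 for complex II, -0.107 to 0.015 for complex III, -0.087 to 0.015 for complex IV and -0.111 to -0.021 for complex V, and that of all members from -0.088 to 0.0004. Of 86 members, 21 kept their sign in every setting; the cause of the other sign changes was not tested.

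The replicate numbers are shared between groups, but residuals of same-numbered arrays correlated at -0.25, -0.03 and -0.50, so the numbers were not taken to pair the samples. With the replicate block 0 members were called and the members' median was -0.045.

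With 3 arrays a group, the median standard error of a member was 0.122, so differences of a few hundredths are not resolved for single genes. Depth is not recorded for arrays. The largest member value was 16.05 in log2, and compression near the top of the scale was not tested.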
